A study of Gallus gallus with 3 samples.

Results

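Chicken DT40 cells whose own H2A.Z had been knocked out and which carried a C-terminally truncated H2A.Z1 (H2A.Z1ΔC) were compared with wild-type DT40 cells by gene expression array. DT40 is a B-cell lymphoma line valued for efficient gene targeting. The comparison used 2 of the 3 arrays of the study, chosen by their labelled genotypes. These were 1 array of double-knockout (DKO) cells with H2A.Z1ΔC and 1 array of wild-type cells. The remaining array, of DKO cells with full-length H2A.Z1, shares the double knockout with the ΔC line, and its values are set beside the others where they help to place a gene. All 3 arrays measured total RNA labelled with Cy3 on a single-colour Agilent chicken design. The labels give neither the promoter of the introduced H2A.Z1 nor whether each line was 1 clone.

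The histone variant H2A.Z takes the place of H2A in some nucleosomes. Remodelling complexes of the SRCAP and p400/TIP60 families exchange it in, above all beside transcription start sites and at enhancers. It is known for roles in both activation and repression of transcription, in DNA repair and in chromosome segregation. Its C-terminal tail differs from that of canonical H2A and contributes to nucleosome stability and to binding by partner proteins. In B cells, transcription factors such as PAX5, EBF1 and IRF4 hold lineage identity, and signalling through the B-cell receptor, its co-receptors and receptors for survival ligands sets the response of the cell.

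Levels are given as log2 of the processed signal relative to the array's own 75th percentile, so 0 is the signal of a fairly bright probe and negative values are dimmer. A difference is ΔC minus wild type on that scale, and a probe entered the comparison when it was well above background on both arrays. With 1 array per group there was no replicate check, no test between groups was possible and no p-values are given. The ΔC array lay on slide 2 and the wild-type array on slide 1, so slide and genotype cannot be told apart. The file headers give scan 2 for the ΔC array and scan 1 for the full-length and wild-type arrays. Where the ΔC array alone stands apart, genotype and scan therefore cannot be told apart either. The 75th percentile itself stood at a processed signal of 1039 on the ΔC array and 1455 on the wild-type array. The share of probes well above background was 72.6% on the ΔC array and 69.7% on the wild-type array. Probes printed 5 times had a standard deviation between spots of 0.0716 on the ΔC array and 0.0808 on the wild-type array, which covers spotting and scanning only. In genes with exactly 2 measured probes, the root mean square gap between the 2 differences was 0.429, which describes the spread between probes. Agreement was judged by a fixed threshold. A gene was called changed with agreeing probes only when it had 2 or more measured probes. Each of them had to differ by 1 or more (at least a doubling or halving) in the same direction. Such agreement checks the measurement and does not replace a second culture. Levels of full-length cells are those of the scanner file. The series matrix value often differs and is added for some genes where it changes how that line is placed. Where it is not given, the place of full-length cells is not settled by the scanner level alone.

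The gene of H2A.Z1, H2AFZ, was examined first. Its first probe had a log2 level of -0.85 in ΔC cells, -0.31 in full-length cells and 6.17 in wild-type cells. The second probe had levels of -0.21 in ΔC cells, 0.81 in full-length cells and 5.87 in wild-type cells. Both probes were far below wild type in each DKO line and well above background everywhere. The ΔC cells were lower than wild type by 129-fold at the first probe and by 67.6-fold at the second. Whether either probe detects the introduced gene is not known. No probe was named for the second H2A.Z gene, H2AZ2, and it is not analysed here.

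Genes that place, remove or bind H2A.Z were close to wild-type levels in ΔC cells. Of 11 measured members, H2AFZ included, 4 lay above 0 (49.9% over all named genes) and the median difference was -0.07. In 1 of 9 alternatives the median turned to 0.03 above that of all genes. Here and in later lists, median scaling and the series matrix values shifted every difference alike and could not move a list relative to all genes. The members farthest from 0 after H2AFZ were ING3, a subunit of the TIP60 complex, at -0.96, and YEATS4, which is shared by the SRCAP and TIP60 complexes, at 0.71. BRD8, another TIP60 subunit, stood at -0.35. ANP32E, the chaperone that removes H2A.Z, differed by -0.15.

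Across the array, 1141 of 29592 measured probes were higher in ΔC cells by 1 or more (3.86%) and 1113 were lower (3.76%), together 7.62%. Averaged over probes, 143 of 4263 named genes were higher (3.35%) and 152 were lower (3.57%). Among the 2752 genes with 2 or more measured probes, all probes agreed on a higher level for 57 genes (2.07%) and on a lower level for 42 genes (1.53%). Another 155 genes had some but not all probes past the threshold. In 1 gene, the muscle troponin TNNT3, probes passed it in opposite directions, with differences between -1.36 and 1.20 over 3 probes. Dim probes passed more often: 6.34% were higher and 6.31% lower among the dimmest 7398 probes, against 0.798% and 1.27% among the brightest 7398. Among genes just inside the rule, the least changed probes of APP and SNCG differed by 1.02 and those of STAT4 and LOC415664 by -1.02. Just outside lay MAN1C1 at 0.996, CHAC2 at 0.978, SYTL1 at -0.994 and TFDP2 at -0.987.

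**Figure D1:**
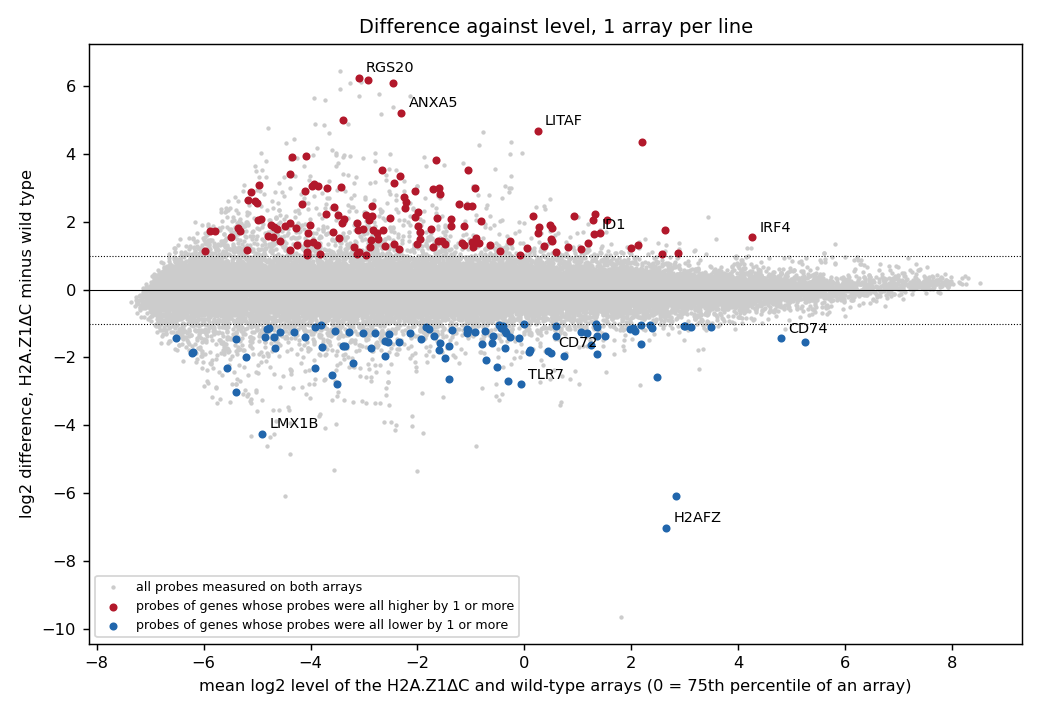
Each point is a probe measured on both arrays, with its mean log2 level over the ΔC and wild-type arrays on the x axis and its log2 difference, ΔC minus wild type, on the y axis. Red points are probes of the 57 genes whose probes were all higher by 1 or more and blue points those of the 42 genes whose probes were all lower. The red points lie mostly at low mean levels, and the 2 probes of H2AFZ are the lowest of the blue points.

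The 57 higher genes had a median level of -1.25 in ΔC cells, against -3.42 in wild-type cells. Most were thus dim on the wild-type array and reached a moderate signal in ΔC cells. Their differences ran between 1.13 and 6.17 with a median of 1.85, and 23 of them exceeded 4-fold. The 42 lower genes had a median level of -1.70 in ΔC cells, against 0.01 in wild-type cells. Their median difference was -1.44, and 7 were lower by 4-fold or more. The sets were chosen by the difference itself, so these levels are a description. In full-length cells the same sets had median levels of -2.68 and -0.58. These lie between the other arrays, and the comparisons share the wild-type array.

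The largest agreeing difference was that of RGS20, a regulator that speeds the inactivation of G-protein alpha subunits. Its mean level over 3 probes was 0.26 in ΔC cells, -0.88 in full-length cells and -5.91 in wild-type cells. Both DKO arrays were high and the wild-type array low, and the 3 probes differed by 6.10 to 6.24. ANXA5, a calcium-dependent protein that binds phosphatidylserine on membranes, had mean levels of -0.29 in ΔC cells, -2.76 in full-length cells and -5.40 in wild-type cells. It was 34.4-fold higher in ΔC cells than in wild-type cells by the mean of 2 probes. The series matrix put ANXA5 at -1.02 in full-length cells, nearer to ΔC cells. ANXA2, a further annexin, had levels of 0.66 in ΔC cells, -1.33 in full-length cells and -1.44 in wild-type cells. Here the ΔC array stood apart from both others. The other 4 measured annexin and S100 genes differed by less than 1.

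LITAF, an endosomal membrane protein first described as a factor induced by lipopolysaccharide, had levels of 3.49 in ΔC cells, 3.64 in full-length cells and -1.03 in wild-type cells. It was 22.8-fold higher in ΔC than in wild-type cells, and both DKO arrays were bright. CXCR7, a scavenging receptor for the chemokine CXCL12, had levels of -0.34 in ΔC cells, -1.49 in full-length cells and -3.29 in wild-type cells. GCH1, which makes the first intermediate of tetrahydrobiopterin, had levels of -1.33 in ΔC cells, -3.33 in full-length cells and -4.54 in wild-type cells over 3 probes. For both genes the full-length array lay between the others. The rest of the 15 largest positive values belonged to genes of varied function. PRKCA, a calcium-dependent protein kinase C, was higher by 2.68, and PRR5, a subunit of the mTORC2 kinase complex, by 2.63. SRGAP1 was higher by 2.90 over 3 probes. PDLIM5, an actin-associated scaffold, was higher by 2.94. CDH11, a cadherin of mesenchymal cells, was higher by 2.82. SERPINE2, a secreted inhibitor of serine proteases, was higher by 2.63. The set was completed by SMCO4 at 3.67, the BEN-domain gene BEND7 at 3.11, the transcriptional coregulator SERTAD2 at 2.92 and the uncharacterised LOC395551 at 2.89.

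**Figure D2:**
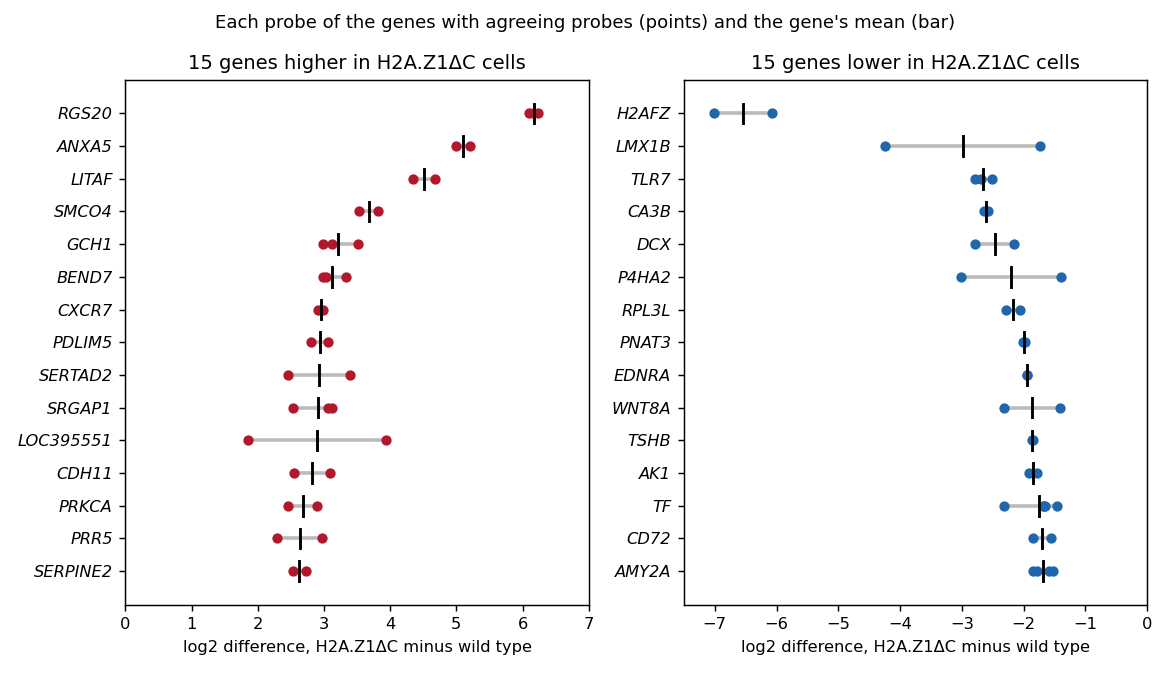
Every measured probe (points) of the 15 genes with the largest positive and the 15 with the most negative mean difference among genes with agreeing probes, with the mean as a black bar and the log2 difference, ΔC minus wild type, on the x axis. Probes of RGS20, CXCR7, CA3B and EDNRA lie close together, whereas those of LMX1B, P4HA2 and LOC395551 are spread widely.

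Several further genes with agreeing higher probes are named after their values were seen. PPFIBP1, a liprin scaffold of adhesion sites, was higher by 2.42 with all 6 probes between 2.17 and 2.88. ATP2B1, a calcium pump of the plasma membrane, was higher by 1.83 over 5 probes. Its level was -0.22 in ΔC cells, -0.19 in full-length cells and -2.05 in wild-type cells. ST3GAL6, a sialyltransferase, was higher by 2.17 over 4 probes. CPT1A, which admits long-chain fatty acids to mitochondria, was higher by 2.54 over 2 probes. AXL, a receptor tyrosine kinase, was higher by 2.07 over 2 probes, and MFGE8, which bridges phosphatidylserine to integrins, by 1.55 over 4 probes. PDGFB, a platelet-derived growth factor chain, was higher by 2.03 over 3 probes.

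Among the lower genes, TLR7 had the second most negative difference after LMX1B when H2AFZ is set apart. TLR7 is an endosomal receptor for single-stranded RNA. Its level over 3 probes was -2.66 in ΔC cells, -0.78 in full-length cells and 0.01 in wild-type cells. The probes differed from wild type by -2.79 to -2.51, so all of them placed ΔC cells lowest. LMX1B, a LIM-homeodomain transcription factor, had levels of -6.28 in ΔC cells, -6.23 in full-length cells and -3.29 in wild-type cells, but its 2 measured probes disagreed in size, at -4.24 and -1.73. CA3B, named as a carbonic anhydrase, had levels of -0.77 in ΔC cells, -0.28 in full-length cells and 1.84 in wild-type cells. DCX, a microtubule-binding protein best known from migrating neurons, differed by -2.47. P4HA2, a collagen prolyl hydroxylase, differed by -2.20 and the endothelin receptor EDNRA by -1.95. RPL3L, a paralogue of the ribosomal protein RPL3 that is restricted to muscle in mammals, differed by -2.17. AK1, an adenylate kinase, differed by -1.85 and the ligand WNT8A by -1.87. The arylamine N-acetyltransferase PNAT3 was 3.99-fold lower. The thyrotropin subunit TSHB differed by -1.86 at levels close to the limit of detection. TF, the iron carrier transferrin, had levels of -5.18 in ΔC cells, -3.57 in full-length cells and -3.42 in wild-type cells over 5 probes. The series matrix gave -4.43 for TF in full-length cells. Under other processing settings the values shrank to -0.59 for P4HA2, -0.58 for WNT8A, -0.10 for TSHB, -0.63 for TF and -1.09 for LMX1B. The amylase genes AMY2A and AMY1A differed by -1.68 and -1.30, but they are near-identical copies and their probes may not tell them apart.

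**Figure D3:**
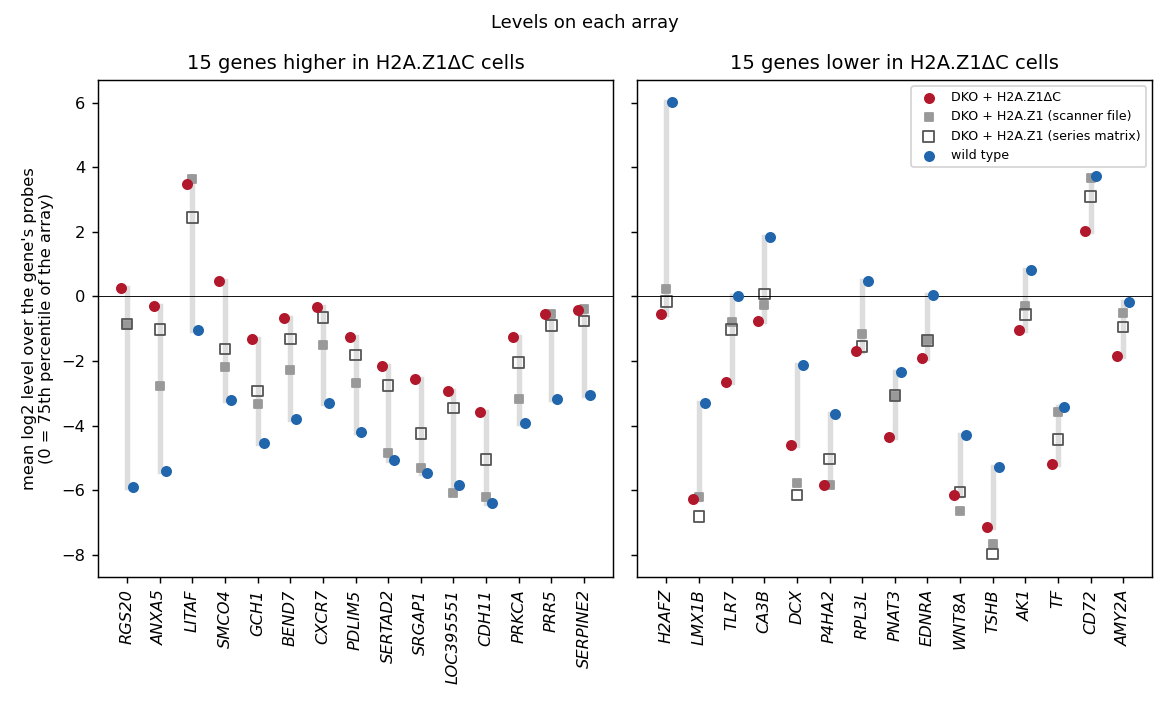
Mean log2 level over a gene's probes on each array (y axis, 0 is the array's 75th percentile) for the same 30 genes. Red circles are ΔC cells, filled grey squares the scanner values of full-length cells, open squares the series matrix values of full-length cells and blue circles wild-type cells. The 2 sets of full-length values differ by more than 1 for several genes, among them ANXA5, LITAF and SERTAD2.

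Genes of B-cell signalling differed in both directions. In this and the following lists, a gene is called higher or lower by its mean over measured probes, often a single one, and agreement between probes is stated apart. Over all named genes, as above, 3.35% were higher and 3.57% lower by that mean. With agreeing probes, 2.07% were higher and 1.53% lower among genes with 2 or more measured probes. List sizes also include genes with 1 measured probe, which could not count as agreeing. Of 27 measured genes of the B-cell receptor and its co-receptors, 1 was higher and 2 were lower with agreeing probes, and the median was -0.01. The sign of that median changed in 5 of 9 alternatives. CD72, an inhibitory co-receptor of the B-cell receptor, had levels of 2.02 in ΔC cells, 3.67 in full-length cells and 3.73 in wild-type cells. The series matrix level of full-length cells was 3.10, between the others. TNFRSF13B, the TACI receptor for the survival ligands BAFF and APRIL, had levels of 1.67 in ΔC cells, 0.23 in full-length cells and 0.01 in wild-type cells. The series matrix gave 0.96 for full-length cells, which lies between the others. CD74, the invariant chain of MHC class II, had levels of 2.32 in ΔC cells, 3.18 in full-length cells and 3.66 in wild-type cells. DAPP1, an adaptor downstream of phosphoinositide 3-kinase, differed by -0.87.

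Of 24 measured transcriptional regulators of B cells, 3 were higher with agreeing probes. Among all genes with 2 or more measured probes this share was 2.07%. Some of the 24, such as PAX5, had 1 measured probe and could not count as agreeing. ID1 and ID2, inhibitors that sequester E proteins, were higher by 1.34 and 1.57. ID1 had levels of 2.61 in ΔC cells, 1.72 in full-length cells and 1.27 in wild-type cells. The series matrix put ID1 at 2.39 in full-length cells, nearer to ΔC cells. ID2 had levels of -1.17 in ΔC cells, -3.34 in full-length cells and -2.74 in wild-type cells. The series matrix put ID2 at -2.56 in full-length cells, so whether that line lies below wild type is not settled. IRF4, a factor of activated B cells and plasma cells, had levels of 1.64 in ΔC cells, 1.40 in full-length cells and 0.28 in wild-type cells. ELL2, an elongation factor of plasma cells, differed by -1.01 at its single probe. The list's median was -0.05, and PAX5 and EBF1 differed by -0.48 and -0.50.

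Antigen presentation genes had a median of -0.16 over 13 measured genes, on the negative side of all genes in each of 9 alternatives. Among these, median scaling and the series matrix values could not differ in this respect. CD74 and the class II peptide loader DMA were the members lower by 1 or more, with DMA at -1.24. The lysosomal proteases CTSV and CTSB were higher, by 2.34 and 1.40 at 1 measured probe each. Of 9 measured genes of Toll-like receptors and their adaptors, 7 lay below 0, whereas 49.9% of all named genes lay above 0. The median of this list was -0.32, again on the same side in 9 of 9 alternatives. TLR3, a receptor for double-stranded RNA, differed by -1.13 and its adaptor TICAM1 by -0.55, while the adaptor TIRAP differed by 0.64. TLR1A and TLR1B were outside this count, with 2 and 3 probes well above background in ΔC cells and none (0) in wild-type cells. Their mean levels were -6.90 and -7.13 in ΔC cells, against -8.47 and -8.72 in wild-type cells. CD14, also outside the count, was well above background in wild-type cells only. Its levels were -9.76 in ΔC cells and -5.66 in wild-type cells. Over the whole array, 2080 probes were well above background in ΔC cells only and 808 in wild-type cells only. The list of cytokines and their receptors also held LITAF, the endosomal membrane protein described above. Of its 30 genes, LITAF included, 4 were higher and 6 lower by their means (3.35% and 3.57% over all named genes). With agreeing probes 2 were higher, LITAF and CXCR7, and 2 were lower. Apart from LITAF and CXCR7, the farthest members were the receptors IL21R at -3.26 and IL6ST at -2.27, each with 1 measured probe. IL16 differed by -1.26 and TNFRSF8, the CD30 receptor, by -1.13, both with agreeing probes. In the interferon list IRF1 alone passed the threshold, with -2.38 at 1 measured probe, among 15 measured genes.

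Ligands and receptors of the Wnt, BMP, FGF and Notch families held 9 higher and 4 lower genes by their means among 58 measured (22.4% past the threshold). Over all named genes 3.35% were higher and 3.57% lower. Many members of this list were dim on both arrays, and dim probes passed more often. The part of signal level in this count was not tested. With agreeing probes 4 members were higher and 1 was lower. The median of the list was 0.16. That median kept its sign in 8 of 9 alternatives and was -0.11 relative to all genes in the other. FZD4 and FZD3, Frizzled receptors for Wnt ligands, were higher by 1.89 and 1.85. FZD4 had levels of -1.06 in ΔC cells, -2.27 in full-length cells and -2.95 in wild-type cells. FZD3 had levels of -2.38 in ΔC cells, -3.70 in full-length cells and -4.23 in wild-type cells over 4 probes. Both receptors were highest in ΔC cells and lowest in wild-type cells. LRP5, their co-receptor, was higher by 1.95 and TGFB2, a transforming growth factor, by 1.36. Among ligands, WNT9A was higher by 2.18 at 1 probe and WNT8A was lower. FST, the secreted inhibitor of activin, had levels of -5.70 in ΔC cells, -3.64 in full-length cells and -1.99 in wild-type cells at 1 measured probe, the most negative value of the list. The series matrix gave -5.63 for full-length cells, so that line cannot be placed for FST.

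Other signalling lists were led by single genes. RGS and G-protein genes had a median of 0.10 over 21 measured genes, and after RGS20 the farthest were ADCY9 at 1.15, GNG2 at -1.15 and RGS2 at 1.02. MAPK11, a p38 kinase, was higher by 5.37 at the 1 of its 3 probes that was measured on both arrays, with levels of 0.22 in ΔC cells, -0.51 in full-length cells and -5.15 in wild-type cells. The other 15 measured MAP kinase genes stayed within 1, DUSP1 being next at 0.70. Of 62 solute carriers, 2 were higher and 2 lower by their means (3.35% and 3.57% over all named genes), and the median was 0.14. SLC40A1, the iron exporter ferroportin, was higher by 1.81 over 3 probes and was the only one with agreeing probes. SLC41A2, a magnesium transporter, differed by 2.01 at 1 probe and the iron importer SLC11A2 by -1.49 at 1 probe. SLC9A9, an endosomal proton exchanger, differed by -1.29 with probes at -1.75 and -0.82. Among 34 ion channel genes KCNMB1 and KCNMB4, regulatory subunits of the calcium-activated BK channel, were higher by 1.37 and 2.58. Only KCNMB1 of this pair had agreeing probes. KCNMB1 had levels of -0.77 in ΔC cells, 0.55 in full-length cells and -2.14 in wild-type cells. The series matrix gave -0.83 for full-length cells. KCNA10, a potassium channel, differed by -3.56 at 1 measured probe, and the acetylcholine receptor subunit CHRNB2 by -1.19 with probes at -1.68 and -0.71.

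Adhesion and matrix genes held 2 higher and 7 lower by their means of 52 measured (3.35% and 3.57% over all named genes). CDH11 alone had agreeing probes. The median was 0.06, and its sign changed in 3 of 9 alternatives. CDHR1 at -3.08, MBL2 at -2.96 and COL22A1 at -2.73 were the most negative, each by 1 measured probe. The integrin gene ITGB2, named after its values were seen, differed by -1.72 over 5 probes. These lay between -2.42 and -0.98, so not all of them passed. With other settings CDHR1 and MBL2 shrank to -0.90 and -0.88. In the actin list MTSS1, a membrane-bending actin regulator, was higher by 4.01 at 1 measured probe. It had levels of -1.51 in ΔC cells, -5.85 in full-length cells and -5.52 in wild-type cells, and the series matrix gave -3.68 for full-length cells. MYH11, a smooth muscle myosin, differed by -1.22 with measured probes at -1.76 and -0.69, and the actin-binding CNN2 by -1.03 at 1 probe. With other settings MYH11 shrank to -0.07. Of 63 homeobox, forkhead, SOX and GATA genes, 2 were higher and 1 was lower by their means (3.35% and 3.57% over all named genes). LMX1B alone had agreeing probes, while SOX5 at 1.22 and HOXB1, at the threshold, rested on 1 measured probe each.

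Metabolic genes were mostly near wild type. No gene of the respiratory chain (0 of 31) and none of sterol and lipid synthesis (0 of 19) differed by 1 or more. Over all named genes 3.35% were higher and 3.57% lower. Most respiratory chain genes were bright on both arrays, where fewer probes passed, and the part of signal level was not tested. The sterol list had a median of -0.17, below that of all genes in 9 of 9 alternatives, led by SQLE at -0.97, the squalene epoxidase. Of 20 glycolysis genes PFKFB4, which makes the activator of phosphofructokinase, was higher by 3.39 at 1 probe, with levels of -1.61 in ΔC cells, -4.15 in full-length cells and -5.00 in wild-type cells. TST, the sulfurtransferase rhodanese, was higher by 5.77 at 1 probe, with levels of 0.16 in ΔC cells, 0.85 in full-length cells and -5.61 in wild-type cells. FABP5, a fatty acid carrier, had levels of 0.72 in ΔC cells and -4.99 in wild-type cells at 1 probe. Its full-length level was -1.80 in the scanner file and -8.02 in the series matrix, so the full-length line cannot be placed for this gene. The retinoid carriers RBP2 and CRABP1 differed by -1.74 and 1.35 at 1 measured probe each.

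Chromatin modifiers had a median of -0.16 over 32 measured genes, on the same side of all genes in 9 of 9 alternatives. Of the 32, 22 lay at or below 0, whereas 49.9% of all named genes lay above 0. The maintenance DNA methyltransferase DNMT1 had levels of -2.17 in ΔC cells, -1.70 in full-length cells and -0.94 in wild-type cells. Its 3 probes differed by -1.51 to -0.76. The series matrix put DNMT1 at -2.10 in full-length cells. KDM5B, a demethylase of histone H3 lysine 4, differed by -1.22 at 1 probe. SMARCA4, a remodeller ATPase, differed by -0.67 and the deacetylase HDAC2 by -0.59, the latter with probes between -1.99 and 0.08. Core and linker histone genes had a median of 0.25 over 13 genes, with the macroH2A gene H2AFY2 as their only member lower by 1 or more. Histone genes share near-identical copies, so single members are uncertain.

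Lists of growth and housekeeping genes stayed close to all genes. Of 53 cell cycle genes CENPN alone passed, at -1.37, and E2F1 differed by -0.86. Of 42 replication and nucleotide genes GART, an enzyme of purine synthesis, alone passed, at -1.05 over 6 probes. Of 49 repair genes 3 were lower by their means (3.57% over all named genes), 1 of them with agreeing probes. The others were FANCA, which differed by -1.12 at 1 probe, and DDB2, at -1.39 with probes at -2.72 and -0.06. Ribosomal proteins lay above 0 in 43 of 50 genes (49.9% over all named genes). Their median was 0.14, but 2 of 9 alternatives put them slightly below all genes. MRPL33 of the mitochondrial ribosome differed by -1.14 and the elongation factor EEF1A2 by -1.07 with measured probes that disagreed on passing 1, the only members of their lists past the threshold. No splicing gene (0 of 57) and no chaperone (0 of 47) differed by 1 or more (3.35% higher and 3.57% lower over all named genes). Bright probes passed less often than dim ones, and the part of signal level in these counts was not tested. CHAC1, a glutathione-degrading enzyme of the unfolded protein response, was higher by 1.21 over 4 probes, the only one of 16 genes of that response past the threshold. BIK, a pro-apoptotic BH3-only protein, was higher by 1.29, the only one of 28 apoptosis genes. MXD4, an antagonist of MYC, was lower at -1.31, the only one of 18 MYC and immediate early genes.

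**Figure D4:**
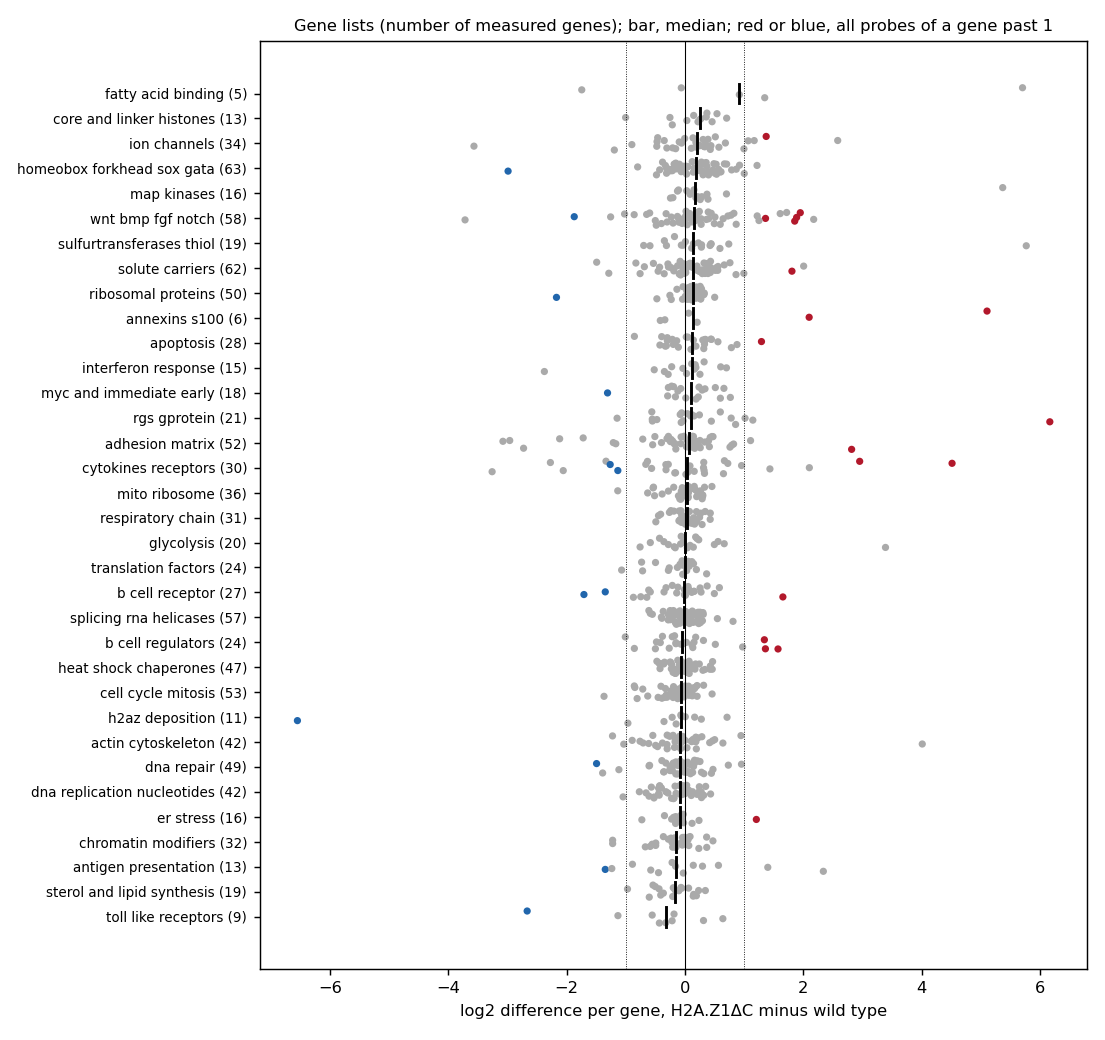
Log2 difference per gene, ΔC minus wild type (x axis), for 34 gene lists (rows, with the number of measured genes), ordered by their medians (black bars). Red and blue points are genes whose 2 or more probes were all higher or all lower by 1 or more, and dotted lines mark 1 and -1. List medians lie near 0, apart from the 5 fatty acid binding genes, while single genes reach 6.17 and -6.55.

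Some genes were well above background on only one array and have only a bound. Over all 43596 probes, 2080 were well above background on the ΔC array only and 808 on the wild-type array only. Of 13 genes with 2 or more such probes bright in ΔC cells, 8 had a median bound of 2-fold or more. Folds here are the smallest bound over a gene's probes. The mercaptopyruvate sulfurtransferase MPST exceeded wild type at least 32.3-fold. MAL2, a transport protein of epithelial cells, was at least 4.22-fold higher and ENAH, which promotes actin filament growth, at least 4.57-fold. The muscle protein MYOZ2 was at least 4.16-fold higher and the adhesion molecule ALCAM at least 4.34-fold over 4 probes. In full-length cells MPST was also bright (level -0.64), whereas neither probe of MYOZ2 was above background. MPST and TST are sulfurtransferases of similar sequence, so cross-detection by their probes was not tested. Of 10 genes bright only in wild-type cells, 7 had a median bound of 2-fold or more. CDH2, the neural cadherin, was at least 25.5-fold lower in ΔC cells. The proteoglycan SDC2 was at least 2.03-fold lower, GUCA2B at least 1.75-fold, MARCH1 at least 3.30-fold and the purine receptor P2RX1 at least 3.08-fold. MARCH1, a ubiquitin ligase that removes MHC class II from the surface, was not part of the antigen presentation list.

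Markers of cell types were read on both arrays to check the label. All 8 B-cell markers on the array were well above background in ΔC cells and 7 in wild-type cells. IGLL1, the lambda light chain, was the brightest of them with a level of 7.85 in ΔC cells and 7.35 in wild-type cells. The summed linear level of the B-cell list in ΔC cells was 135% of wild type, although 5 of its 7 measured genes were lower. That sum was set mainly by IGLL1. Of 10 T-cell markers, 7 were detected in ΔC cells and 8 in wild-type cells, led by CD3D with levels of 4.06 in ΔC cells and 4.83 in wild-type cells. CD4 and CTLA4 were not well above background on either array. The summed T-cell level was 58.7% of wild type and was set mainly by CD3D, although 5 of 7 measured genes were higher, by 0.06 to 0.66. Macrophage markers summed to 68.9% of wild type with 6 of 8 detected in ΔC cells and 5 in wild-type cells, and C1QC was not well above background on either. Fibroblast markers summed to 81.8% with 8 of 10 detected in ΔC cells and 6 in wild-type cells, and DCN and PDGFRA were not well above background on either. Erythroid markers summed to 82.6% with 5 of 8 detected in ΔC cells and 4 in wild-type cells, at levels of -3.07 or less on both arrays. Endothelial KDR and CDH5 and epithelial EPCAM and CDH1 were not well above background on either array. The part of these markers in the differences above was not tested.

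Neighbouring genes were also set in order along the chromosomes, with windows chosen after the data were seen. The longest run of shifted neighbours reached from NUDT21 to CHST6. Its 94 measured genes had a median difference of -0.49, and 86 of them lay below 0 (2051 of 4169 outside). Of these genes 14.9% were lower by 1 or more, against 3.31% of the genes outside. Because the run was chosen by these same differences, its median and counts are a description only. The run held 5 of the 42 genes lower with agreeing probes, namely SNX20, CDCA9, CMC2, GCSH and PNAT3, and the single-probe genes CENPN and FANCA named above. CDH11 lies in the same run and was higher, at 2.82. In full-length cells minus wild type the run had a median of -0.50 against the same wild-type array, and ΔC minus full-length cells gave 0.01. A second run, from AZIN1 to RPLP1, had a median of -0.33 over 27 genes, 17 of them below 0 (2120 of 4236 outside). It held MTSS1 and COL22A1. Full-length minus wild type gave -0.33 there too. These are 2 of 32 runs. Some others were also lower in both comparisons. MCFD2 to YIPF4, over 20 genes, had a median of -0.29 in ΔC minus wild type and of -0.50 in full-length minus wild type. Further runs differed from these: PYROXD1 to NDUFA9, over 26 genes, had medians of 0.32 in ΔC minus wild type and 0.05 in full-length minus wild type.

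**Figure D5:**
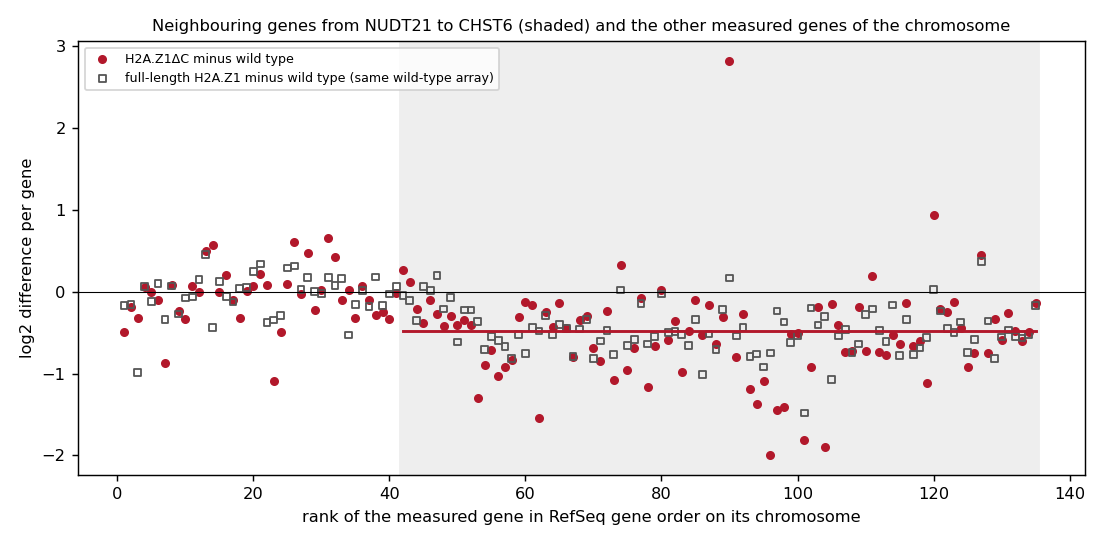
Log2 difference per gene (y axis) against the rank of measured genes in RefSeq order along one chromosome (x axis), for ΔC minus wild type (red circles) and full-length minus wild type (open squares, same wild-type array). The shaded run from NUDT21 to CHST6 has a median of -0.49 in ΔC cells (red line), and CDH11 at 2.82 is its highest point.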

How the data were processed

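Total RNA of each line was labelled with Cy3 and hybridised to 1 array; per the labels' protocols, RNA came from a blood kit with red-cell lysis and globin removal. Agilent Feature Extraction 11.5.1.1 read the spots, per the file headers, and the deposited processed signal is a background-subtracted linear intensity with no scaling between arrays. The deposited series matrix holds a second intensity; its ΔC and wild-type columns equal the processed signal times 1.53 and 1.07, whereas its full-length column is no multiple of the scanner values, and its source array is unknown (0 columns left unused).

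Control spots and 13 flagged spots were left out, which left 43596 of 43603 probes; 0 spots were saturated. Processed signals were taken to log2, the array's 75th percentile was subtracted, and the spots of a probe were averaged. RefSeq accessions matched 27.4% of probes to 5382 genes of assembly GRCg7b, used for names and gene order only because the array was annotated on galGal3. For a bound, the bright value was divided by the dim probe's value or, where that was lower, by the dimmest signal well above background on the same array. Python 3.11.15, R 4.3.3 and limma 3.58.1 were used. The scaling and the threshold were tried on simulated single spots with low noise and differences well beyond the threshold. Averaging over spots and the rule of agreeing probes were not tested that way.

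Members and lists were chosen with earlier results of these data known, and names wrongly caught by a list's prefix were taken out after the files were read. Named were H2AFZ, the 15 genes farthest from 0 in each direction with agreeing probes, in each list the agreeing members and the 4 farthest from 0, and 5 bounds per direction by the median bound; others are marked in the text. Promoter sequences were not analysed here. List members within 1 of 0 are mostly covered by counts only, and some other eligible genes are not reported here.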

Additional observations from a re-analysis of the deposited data

How the results depend on the processing

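No paired analysis was possible because each group has 1 array, and for the same reason no replicate could be left out. Normexp used the median signal and its local background, the foreground column of the files. With normexp and quantile normalization 576 probes were higher and 529 lower, and 31 and 22 genes had agreeing probes, all among the 57 and 42. With normexp and the 75th percentile 684 probes were higher and 440 lower, and 21 genes were lower by agreeing probes. That setting put the median over all probes at 0.11 and the higher share among changed probes at 60.9%, against 50.6% as reported. Over probes brighter than the median 233 were higher and 301 lower, with 12 and 22 genes. A threshold of 1.5 on the log2 scale gave 527 and 401 probes and 32 and 14 genes, and a threshold of 1.5-fold gave 3154 and 3151 probes and 137 and 113 genes. Genes in place of probes gave 143 higher and 152 lower, and 3 or more measured probes per gene left 21 and 10 genes. Median scaling, quantile normalization, cyclic loess, the series matrix values and no background filter kept each count within 1.5 times. The median of the fatty acid binding list relative to all genes was 0.22 with normexp and quantile normalization, 0.46 with normexp and the 75th percentile, -0.29 without a background filter and -0.053 over brighter probes, against 0.92 as reported. The ion channel list was at -0.29 without the filter. No named gene changed direction (0 of 1775 comparisons), and 178 moved by more than the spread between probes, of which 77 and 72 came with normexp by the 75th percentile and by quantile normalization. Most named genes were chosen for large differences, and median scaling and the series matrix values shifted every difference alike. Many of these comparisons could thus hardly reverse, and the absence of reversals is a description only. The smallest values included -0.10 for TSHB, -0.58 for WNT8A, -0.59 for P4HA2, -0.63 for TF, -1.09 for LMX1B, -0.88 for MBL2, -0.90 for CDHR1 and 0.66 for APP. The cause was not tested.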

Other observations

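Frizzled receptors beyond the named FZD3 and FZD4 were looked at after their values were seen. All 6 measured Frizzled genes lay above 0 in ΔC against wild-type cells, as did 49.9% of all named genes. FZD7 and FZD10 were on the array but had no probe measured on both arrays. FZD9 differed by 1.72, FZD1 by 1.25 and FZD2 by 0.40 at 1 measured probe each, and FZD6 by 0.39 over 8 probes. Of the Wnt ligands on the array, 5 were measured, and WNT6, WNT10A and WNT11B differed by 0.18, 0.08 and -0.05.

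Probes without a gene name passed the threshold somewhat more often than named probes, with 4.14% higher and 4.05% lower of 20297, against 3.23% and 3.12% of 9295. The extremes of the array were unnamed. The most negative probe, chosen after values were seen, had a level of -3.00 in ΔC cells, -2.28 in full-length cells and 6.63 in wild-type cells, a 792-fold difference. The most positive probe had levels of -0.24 in ΔC cells, -2.91 in full-length cells and -6.67 in wild-type cells. Which transcripts they detect is not known here.

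Among genes with a single probe and only a bound, COL20A1, a collagen, was at least 131-fold lower in ΔC than in wild-type cells, and HPGDS, a prostaglandin D synthase, at least 12.4-fold higher.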
